A study of Mus musculus with 12 samples.

Results

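Ccl11, Ccl24, Ccl17 and Ccl22 are chemokines of type 2 immunity, and Ccr3 and Ccr4 are receptors that bind them. These 6 mRNAs, 4 ligands and 2 receptors, were chosen by name out of the 179 inflammation genes on a mouse nCounter panel, and their values were followed in the oviducts of 12 female CD1 mice. CD1 is an outbred stock. The mice were 6 to 8 weeks old and received an intraperitoneal injection of 100 µL saline buffer on the day of estrus. The buffer held no lipopolysaccharide (LPS) in 4 control mice, 2 µg in 4 low-dose mice and 10 µg in 4 high-dose mice, of LPS of the E. coli serotype 055:B5. The oviducts were taken 24 h after the injection for total RNA. LPS is a component of the outer membrane of Gram-negative bacteria and is sensed by Toll-like receptor 4.

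Chemokines are small secreted proteins that direct the migration of leukocytes through receptors coupled to G proteins. Ccl11 (eotaxin) and Ccl24 (eotaxin-2) draw eosinophils, granulocytes of allergic and antiparasitic responses, through Ccr3. Ccl17 and Ccl22 are made largely by macrophages and dendritic cells and bind Ccr4, which is carried by type 2 helper and regulatory T cells. In mice eosinophils are known to enter the female reproductive tract with the estrous cycle, and Ccl11 is needed for their entry into the uterus.

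Ccl22 and Ccl17 lie on chromosome 8 with only Cx3cl1 between them in the RefSeq order of genes (GRCm38.p6), so both have 1 receptor and 1 chromosomal region in common. The 250 bases before the start of each are shown because their values in these oviducts are compared below. The windows are chr8:94745434-94745683 for Ccl22 and chr8:94810203-94810452 for Ccl17, both on the plus strand, from RefSeq's GRCm38.p6. The Ccl17 window lies inside the span annotated for the gene. Capitals mark matches to TTCNNNGAA and TTCNNNNGAA, the letters bound by STAT factors and by STAT6, the transcription factor of interleukin-4 signalling.
Ccl22: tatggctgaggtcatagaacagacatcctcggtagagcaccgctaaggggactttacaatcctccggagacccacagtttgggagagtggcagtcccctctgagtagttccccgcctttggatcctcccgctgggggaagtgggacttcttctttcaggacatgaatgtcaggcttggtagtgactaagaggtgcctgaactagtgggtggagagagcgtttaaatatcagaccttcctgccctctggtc
Ccl17: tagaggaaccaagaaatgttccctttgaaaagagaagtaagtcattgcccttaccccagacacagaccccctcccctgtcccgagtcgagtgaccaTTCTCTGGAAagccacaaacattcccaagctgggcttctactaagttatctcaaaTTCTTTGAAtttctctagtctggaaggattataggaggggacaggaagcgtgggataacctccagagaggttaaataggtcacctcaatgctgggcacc
The Ccl17 window held TTCTCTGGAA at -154 to -145 and TTCTTTGAA at -99 to -91, counted from the annotated start, and these did not overlap. Both strands were searched. The Ccl22 window held neither. Of 32851 promoter windows of the same length, 5.85% held TTCNNNNGAA and 7.02% held TTCNNNGAA. The NF-kB consensus, which is bound by the factor that LPS activates, was in 7.25% of the windows and, of the 4 genes of this group with a window in the table, in that of Ccr3 alone. A match says only that these letters are present.

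The nCounter assay counts single mRNA molecules by fluorescent barcodes without amplification. Endogenous counts per mouse totalled 98258 to 126058 in controls, 129391 to 164383 in low-dose mice and 128258 to 196878 in high-dose mice. Counts were divided by the geometric mean of 6 reference genes in the same mouse and are called scaled counts. The share of image fields counted was 62.3% to 90.2%, and control mice 2 and 4 lay under 75%. The panel held none of 9 oviduct epithelium markers, so the labelled tissue could not be checked in the counts. It also held none of 18 listed markers of eosinophils, mast cells and basophils. That list leaves out Ccr3, so these cells could not be checked apart from Ccr3 itself. In whole oviducts, fewer cells of a type and less RNA per cell cannot be told apart.

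None of the 6 mRNAs passed the test in any comparison of the groups (edgeR quasi-likelihood test, adjusted p below 0.05 over the 165 genes tested). In simulated data for high dose against control, 30.6% of 2-fold differences were found for genes with control means under 50. All of the 6 but Ccl11 are such genes, so a real difference of that size could be missed. Of all genes tested, 22.4% passed at the high dose against control, 37 genes that were all higher. With TMM scaling 34 genes were called higher and 20 lower, and with total counts 30 higher and 62 lower. The share was 2.42% at the low dose against control and 6.67% at the high against the low dose. Without adjustment 1 of the 6 passed in each comparison, where 32.1%, 13.9% and 22.4% of all genes did: Ccl17 at the high dose, Ccl22 at the low dose, and Ccl11 between the doses. The median log2 fold change of the 6 was 0.20 for high dose against control, -0.29 for low dose against control and 0.55 for high against low dose. Over all 165 genes it was 0.24, 0.08 and 0.21. The test of any difference among the 3 groups called 19.4% of the genes and none of the 6 (edgeR). Without adjustment it reached Ccl17 alone of the 6, at 0.0475, where 29.7% of all genes passed. The one-way test on log2 scaled counts that the design text names called none of the 6 after adjustment, and without it reached Ccl22 in place of Ccl17.

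Raw counts lay above the limit set by the negative control probes in all 12 mice for Ccl11, Ccl17, Ccl22 and Ccr3. Ccl24 was above it in 11 mice. Ccr4 was above it in 4 mice, 0 of 4 controls, 2 of 4 low-dose and 2 of 4 high-dose mice. This limit, the mean plus 2 SD of 8 probes, was 3.16 to 6.78 raw counts.

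**Figure D1:**
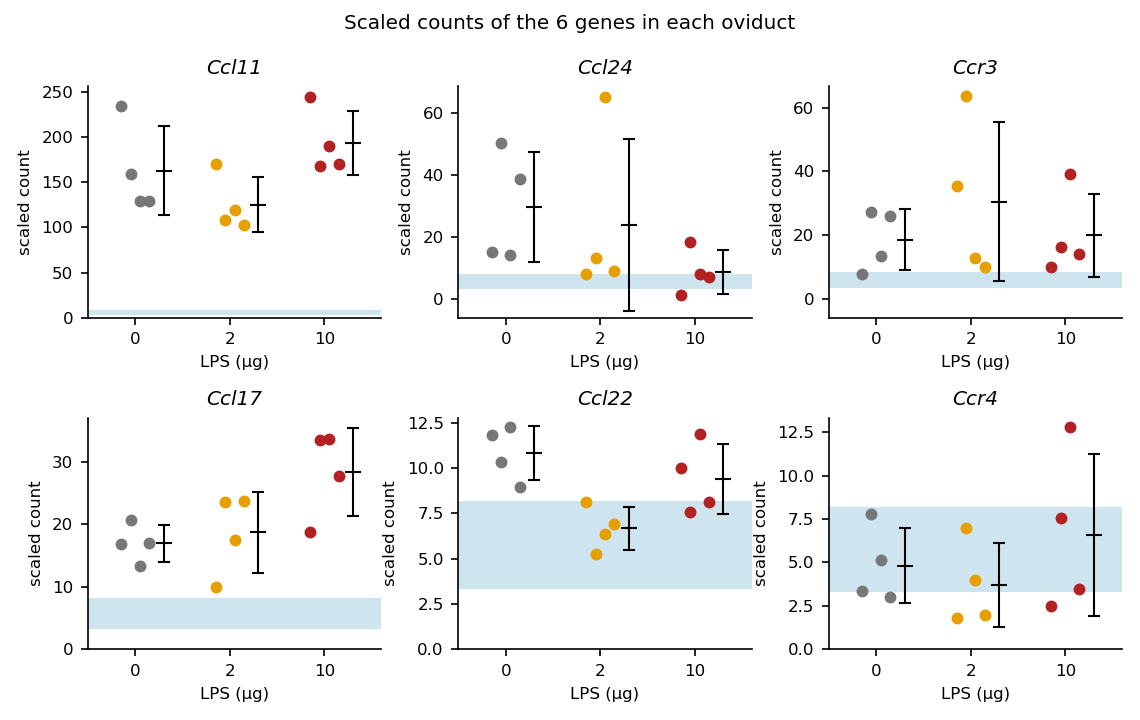
Scaled counts (counts divided by the reference gene scale, linear axes) against LPS dose in µg for the 6 mRNAs. Points are mice, bars are means ± SD of 4 mice, and the band spans the negative control limits of the 12 mice on the same scale, 3.30 to 8.21. Ccl11 lay far above the band in every mouse. Ccl22 lay in or near it, and Ccr4 in, near or below it. In some mice Ccl24 was in, near or below it and Ccr3 in or near it.

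The eotaxin Ccl11 was the one mRNA of the group that stood well clear of background. Its scaled counts were 235, 159, 129 and 130 in control mice 1 to 4. They were 170, 109, 120 and 103 in low-dose mice and 245, 168, 191 and 170 in high-dose mice. Mouse 1 was the highest of every group. The controls averaged 163 ± 49.7, the low-dose mice 125 ± 30.7 and the high-dose mice 194 ± 35.8 (SD, n = 4 each), so the low dose had the lowest mean and the high dose the highest, and neighbours in that order were within the spread of the mice. The log2 fold change at the high dose against control was 0.25 ± 0.23 (SE; 95% interval -0.26 to 0.76; edgeR adjusted p = 0.505). At the low dose it was -0.38 ± 0.23 (interval -0.89 to 0.13; edgeR adjusted p = 0.501). Between the doses the difference was 0.63 ± 0.23 (interval 0.11 to 1.14; edgeR adjusted p = 0.138, unadjusted 0.0208), and 15 of the 16 pairs of a high-dose with a low-dose mouse were in that direction. With the mouse number as a block the difference was 0.64 and passed (edgeR adjusted p = 0.0207). The labels do not say that mice of the same number share a litter or day. The high-dose difference from control changed sign with the scaling, to -0.01 with TMM and -0.36 with total counts.

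Ccl24, the other eotaxin, varied between mice more than any other of the 6. Its scaled counts were 15.2, 50.5, 14.3 and 38.9 in controls, 8.15, 13.1, 65.3 and 8.92 in low-dose mice, and 1.25, 18.4, 8.22 and 6.96 in high-dose mice. High-dose mouse 1 had 1 raw count, under its limit of 6.57. The groups overlapped, and low-dose mouse 3 held the highest value of all. The median coefficient of variation within groups was 82.1%, the fifth highest of the 165 genes, for which the median was 19.4%. Controls averaged 29.7 ± 17.9, low-dose mice 23.9 ± 27.7 and high-dose mice 8.71 ± 7.15 (SD, n = 4 each). The log2 fold change was -1.71 ± 0.83 at the high dose against control (interval -3.53 to 0.10; edgeR adjusted p = 0.176). It was -0.27 ± 0.74 at the low dose against control (edgeR adjusted p = 0.886) and -1.44 ± 0.82 at the high against the low dose (edgeR adjusted p = 0.329).

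The Ccl24 differences of the low dose from control and from the high dose depended on single mice. At the high dose against control, leaving out each mouse gave log2 fold changes of -2.35 to -1.35. High-dose mice were the higher in 2 of 16 pairs with controls. Controls 2 and 4, which had the highest Ccl24 of their group, were also those with under 75% of fields counted. Without these 2 mice the log2 fold change was -0.73 at the high dose and 0.71 at the low dose. Without low-dose mouse 3 it was -1.52 at the low dose against control and -0.19 between the doses. That mouse also had 51 raw counts of Ccl5, an interferon-linked and T cell chemokine, where the other low-dose mice had 192 to 1696. DESeq2 called Ccl24 at the high dose, with a log2 fold change of -2.04 and an adjusted p of 0.0393, and so did edgeR on the total count scale (-2.28, adjusted p = 0.0383).

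Ccr3, the receptor of both eotaxins and the marker by which eosinophils are often recognised, also varied widely, with a median coefficient of variation of 66.4% within groups. Controls had 7.59, 27.2, 13.3 and 25.9 scaled counts, low-dose mice 35.3, 63.9, 12.8 and 9.91, and high-dose mice 10.0, 16.3, 39.3 and 13.9. All groups overlapped. The means were 18.5 ± 9.60, 30.5 ± 25.0 and 19.9 ± 13.2 in the same order (SD, n = 4 each), and no neighbouring means differed beyond the spread of the mice. The log2 fold change was 0.15 ± 0.66 at the high dose (interval -1.29 to 1.60) and 0.74 ± 0.64 at the low dose (interval -0.66 to 2.15), with edgeR adjusted p of 0.886 and 0.692. Intervals this wide hold more than a doubling. At the low dose the value was 1.55 without control mice 2 and 4, and 0.09 without low-dose mouse 2. At the high dose the sign changed with the scaling, to -0.07 with TMM and -0.40 with total counts.

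Ccl17, a ligand of Ccr4, had the smallest p of the 6 at the high dose against control. Scaled counts were 16.9, 20.7, 13.3 and 17.0 in controls, 9.96, 23.6, 17.5 and 23.8 in low-dose mice and 18.7, 33.6, 33.8 and 27.8 in high-dose mice. The high-dose mice were the higher in 15 of 16 pairs with controls, with mouse 1 below the highest control. Ccl17 averaged 28.5 ± 7.06 at the high dose and 17.0 ± 3.03 in controls (SD, n = 4 each), a difference of 1.69-fold, log2 0.76 ± 0.29 (interval 0.12 to 1.39; edgeR adjusted p = 0.0831, unadjusted 0.0237). Without high-dose mouse 1 it was 0.91 with an edgeR adjusted p of 0.0379. Without low-dose mouse 1, which moves only the shared spread, it was 0.76 with 0.0396. Leaving out each mouse gave 0.66 to 0.91, and without high-dose mouse 3 Ccl17 did not pass even unadjusted (edgeR). Nor did it pass unadjusted in DESeq2 or in edgeR on the total count scale. The exact permutation p was 0.0571. The low dose averaged 18.7 ± 6.53, a log2 fold change from control of 0.15 ± 0.29 (edgeR adjusted p = 0.857).

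Ccl22, the other Ccr4 ligand, was highest in controls, which averaged 10.9 ± 1.49 scaled counts, while low-dose mice averaged 6.68 ± 1.20 and high-dose mice 9.39 ± 1.95 (SD, n = 4 each). Single controls had 11.8, 10.4, 12.3 and 8.98, low-dose mice 8.15, 5.25, 6.38 and 6.94, and high-dose mice 10.0, 7.59, 11.9 and 8.12. Every low-dose mouse lay below every control. Of the 165 genes, 0.606% had such a separation downward at this dose, which is Ccl22 itself. The log2 fold change was -0.70 ± 0.29 at the low dose (interval -1.34 to -0.06; edgeR adjusted p = 0.291, unadjusted 0.0353) and -0.20 ± 0.32 at the high dose (edgeR adjusted p = 0.737). Raw counts were 6 to 9 in low-dose mice and 8 to 14 in controls, so the difference is of a few molecules counted, and the raw counts overlapped, as did those scaled by positive controls. The separation was present under the scales of 4 reference genes, total counts, TMM and DESeq2 size factors. On the total count scale Ccl22 was called at the high dose, at -0.79 (edgeR adjusted p = 0.0306).

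Ccr4, the receptor of both, was the least detected. Raw counts were 4, 6, 5 and 3 in controls, 2, 8, 5 and 2 in low-dose mice, and 2, 7, 14 and 3 in high-dose mice. Only mice 2 and 3 of each LPS dose lay above the background limit. The log2 fold change was 0.55 ± 0.55 at the high dose (interval -0.67 to 1.76; edgeR adjusted p = 0.535) and -0.30 ± 0.59 at the low dose (interval -1.59 to 0.98; edgeR adjusted p = 0.851). Since no control was above background, the fitted values rest on counts that background probes also reach, and without high-dose mouse 3 the high-dose value was -0.02. A difference in Ccr4 of less than these intervals was not detectable at this depth.

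**Figure D2:**
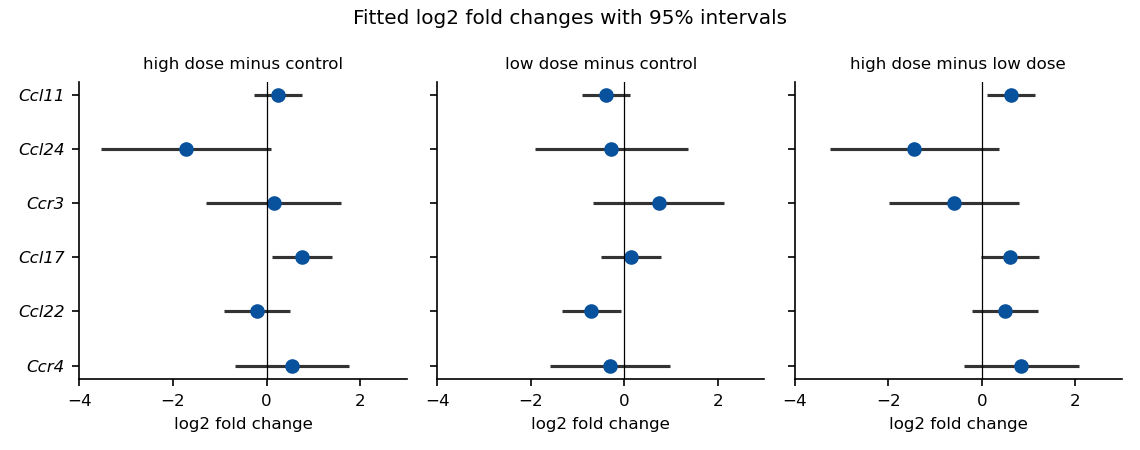
Log2 fold changes of the 6 mRNAs with 95% intervals, for high dose minus control, low dose minus control and high minus low dose (edgeR, 4 mice per group). The intervals of Ccl17 at the high dose, Ccl22 at the low dose and Ccl11 between the doses lie off 0, and none passed after adjustment.

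The ratio of 2 ligands of the same receptor within a mouse does not depend on the scaling. The log2 ratio of Ccl17 to Ccl22 was 0.51, 1.00, 0.12 and 0.92 in controls, 0.29, 2.17, 1.46 and 1.78 in low-dose mice and 0.91, 2.15, 1.51 and 1.78 in high-dose mice. High-dose mouse 1 lay within the range of the controls and the other high-dose mice above it. The difference from control was 0.95 ± 0.33 at the high dose (SE; exact permutation p = 0.0857) and 0.79 ± 0.45 at the low dose (exact permutation p = 0.143), both 0.214 after adjustment over the 6 planned ratio tests. The log2 ratio of Ccl11 to Ccl24 was 3.95, 1.66, 3.17 and 1.74 in controls, 4.38, 3.05, 0.87 and 3.53 in low-dose mice and 7.61, 3.19, 4.54 and 4.61 in high-dose mice. High-dose mouse 2 lay within the range of the controls. The difference between high dose and control was 2.36 ± 1.09 (two-sided exact permutation p = 0.0571, adjusted 0.214). At the low dose it was 0.33 ± 0.94 (exact permutation p = 0.771). Without high-dose mouse 1, whose Ccl24 was 1 count, the high-dose difference was 1.49. With 4 mice against 4 the smallest p these tests can give is 0.0286.

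**Figure D3:**
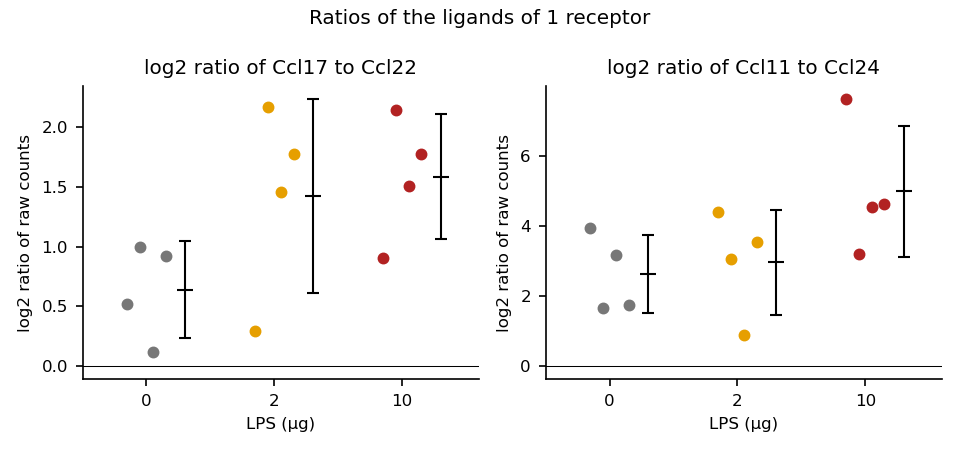
Log2 ratios of raw counts within each mouse, Ccl17 to Ccl22 and Ccl11 to Ccl24, against LPS dose in µg. Points are mice and bars are means ± SD of 4. The Ccl17 to Ccl22 ratio averaged 1.59 ± 0.52 at the high dose and 0.64 ± 0.41 in controls.

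Ccl11 lies on chromosome 11 in a row of chemokine genes in the order Ccl2, Ccl7, Ccl11, Ccl12 and Ccl8 (RefSeq, GRCm38.p6), and its panel neighbours Ccl2, Ccl7 and Ccl8 attract monocytes. All 3 rose at the high dose. Ccl2 averaged 661 ± 176 scaled counts at the high dose and 48.9 ± 14.1 in controls (log2 fold change 3.75 ± 0.47, edgeR adjusted p = 0.000297). Ccl7, which also binds Ccr3, averaged 148 ± 32.3 at the high dose and 8.57 ± 5.15 in controls, of which 2 were above background (4.05 ± 0.56, edgeR adjusted p = 0.000467). Ccl8 averaged 699 ± 212 at the high dose and 79.8 ± 57.2 in controls (3.12 ± 0.46, edgeR adjusted p = 0.000687). Ccl11 did not pass.

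The ratios of Ccl11 to these neighbours were tested after the data had been seen. The log2 ratio of Ccl11 to Ccl2 differed by -3.49 ± 0.29 between high-dose mice and controls, 11.2-fold lower at the high dose. For Ccl7 the difference was -3.97 ± 0.33 and for Ccl8 it was -3.01 ± 0.35. In each case no high-dose mouse overlapped a control. The exact permutation p was 0.0286 for each, the smallest possible, and 0.0514 after adjustment over the 9 such tests. Ccl2, Ccl7 and Ccl8 were already seen to be higher in every high-dose mouse than in every control. The outcome of these tests was therefore largely fixed in advance, and the p-values add no separate support. At the low dose Ccl8 rose (2.22 ± 0.45, edgeR adjusted p = 0.0223) and was higher in every low-dose mouse than in every control. The log2 ratio of Ccl11 to Ccl8 differed from that of controls by -2.74 ± 0.40, with no overlap (exact permutation p = 0.0286, adjusted 0.0514). That p adds no separate support either. The ratios to Ccl2 and Ccl7 overlapped the controls at the low dose, with differences of -1.41 ± 0.55 and -1.19 ± 0.67 (exact permutation p = 0.0571 and 0.114, adjusted 0.0735 and 0.129). Neither Ccl2 nor Ccl7 passed the test at this dose (edgeR adjusted p = 0.184 and 0.487).

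**Figure D4:**
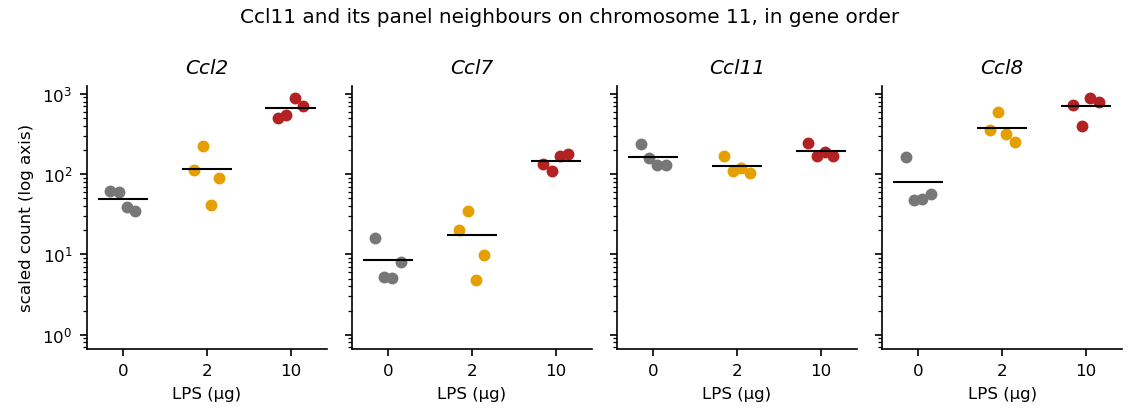
Scaled counts (log axis) of Ccl2, Ccl7, Ccl11 and Ccl8, in chromosomal order, against LPS dose in µg. Points are mice and lines are group means of 4 mice. Ccl2, Ccl7 and Ccl8 were higher in all high-dose mice than in all controls, and Ccl11 overlapped.

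Most other chemokine ligands on the panel rose at the high dose. Of 14, 12 rose and 0 fell under each of the 6 scales tried, and Ccl21b and Cxcl3 did not pass (edgeR). Their median log2 fold change was 2.78, with Cxcl9, which attracts T cells through Cxcr3, at 5.40 ± 0.94 (edgeR adjusted p = 0.00179). Ccl5, a further ligand of Ccr3, averaged 868 ± 289 scaled counts at the high dose and 32.9 ± 10.8 in controls (4.73 ± 0.91, edgeR adjusted p = 0.00262). It rose at the low dose as well (4.21 ± 0.89, edgeR adjusted p = 0.0236), where 2 of the 14 ligands rose. Of 6 other chemokine receptors, 2 rose at the high dose and 1 at the low dose, where 22.4% and 2.42% of all tested genes passed. Il8rb, the neutrophil receptor now named Cxcr2, had 24 to 64 raw counts at the high dose and 3 to 5 in controls, all of which lay below the background limit. Ccr7, the lymph node homing receptor of dendritic and T cells, had 7 to 17 at the high dose and 1 to 5 in controls, again below the limit. Ccr1 and Ccr2, which lie close to Ccr3 on chromosome 9, had log2 fold changes of 0.93 ± 0.35 and 0.17 ± 0.42 at the high dose, neither past the threshold (edgeR adjusted p = 0.0797 and 0.841).

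The type 2 cytokines were close to background. Il4, Il13, Il5, Il9 and Il3 are on the panel, and only Il4 and Il13 passed the filter on low counts. Il4 had 2 to 11 raw counts per mouse and Il13 3 to 8, and their log2 fold changes at the high dose were 0.42 ± 0.47 and -0.12 ± 0.44, neither past the threshold (edgeR adjusted p = 0.592 and 0.866). Il5, the growth factor of eosinophils, had 2 to 7 and was above the limit in 3 of 12 mice, Il9 in 2 and Il3 in 0. None of 8 alternative activation genes was on the panel.

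Some markers of macrophages and dendritic cells, of T and NK cells and of neutrophils rose at the high dose. Of all tested genes 22.4% did, and the part of these markers in the values above was not tested. For the macrophage and dendritic cell list 5 of 8 rose, and the summed scaled count was 4235 to 8407 at the high dose and 2170 to 4513 in controls. C1qa, a complement subunit made by macrophages, averaged 1560 ± 143 scaled counts at the high dose and 551 ± 112 in controls (edgeR adjusted p = 0.00838). The 3 that did not pass were Ccr2 and the class II chains H2-Eb1 and H2-Ea, the last at -3.40 ± 1.74 (edgeR adjusted p = 0.201). H2-Ea had 4 to 46 raw counts at the high dose and 44, 1031, 5 and 44 in control mice 1 to 4. Its fold change rests largely on control mouse 2, and low-dose mouse 2 had 1227. For the T and NK cell list 2 of 6 tested rose, with sums over the 8 on the panel of 108 to 136 at the high dose and 54.0 to 92.8 in controls. Il18rap and Il23r, subunits of cytokine receptors, were at 1.58 ± 0.28 and 1.47 ± 0.30 (edgeR adjusted p = 0.00187 and 0.00388), and Cd4 at 0.41 ± 0.41 (edgeR adjusted p = 0.527). Of 3 neutrophil markers 2 rose, with sums of 196 to 357 at the high dose and 77.6 to 125 in controls. They were Il8rb and Itgb2, a leukocyte integrin chain, at 1.23 ± 0.31 (edgeR adjusted p = 0.0119).

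The 6 mRNAs did not share 1 pattern over the 12 mice. On log2 scaled counts the Pearson correlation was -0.13 between Ccl17 and Ccl22 and -0.47 between Ccl11 and Ccl24, the pairs with a common receptor. It was 0.63 between Ccl11 and Ccl22, 0.62 between Ccl17 and its receptor Ccr4, and 0.46 between Ccr3 and Ccr4. The correlations are descriptions, since all genes of a mouse share its RNA and scale and the closest gene is the highest of 164. Ccl17 was closest to Ccl4 (r = 0.84, Spearman 0.94), a macrophage chemokine that rose at the high dose (1.78 ± 0.36, edgeR adjusted p = 0.00349). Ccl11 was closest to Hspb2, a small heat shock protein of muscle (r = 0.87, Spearman 0.87). Ccr3 was closest to Il18, an epithelial and macrophage cytokine (r = 0.84, Spearman 0.92), and Ccl24 to C7, a terminal complement component (r = 0.85, Spearman 0.75). None of Hspb2, Il18 and C7 passed the test at the high dose (edgeR adjusted p = 0.396, 0.396 and 0.410). The next closest were Mef2c and Ccl22 for Ccl11 (r = 0.69 and 0.63), Cxcl2 and Jun for Ccl17 (0.75 and 0.72), Gnas and Fasl for Ccr3 (0.63 and 0.62), and Csf2 and Pik3c2g for Ccl24 (0.54 and 0.53).

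These 4 relations were also present once the group means were removed, but each pair was picked as the closest over the same mice. The values that follow describe these mice and do not test the relations. After subtracting the group means r was 0.78 for Ccl17 and Ccl4, 0.77 for Ccl11 and Hspb2, 0.91 for Ccr3 and Il18 and 0.86 for Ccl24 and C7. Without the 2 mice farthest from the median of the second gene it was 0.88, 0.87, 0.70 and 0.79 in the same order. On the total count scale that of Ccl17 and Ccl4 was 0.59. Ccl22 was closest to Shc1 (r = 0.69, 0.31 after subtracting the group means and 0.38 without 2 mice), then Cdc42 and Ccl11 (0.67 and 0.63). Ccr4 was closest to Csf2 (r = 0.79), then Il1a and Myl2 (0.64 and 0.63). Ccl22, Ccr4 and Csf2 all had few counts.

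**Figure D5:**
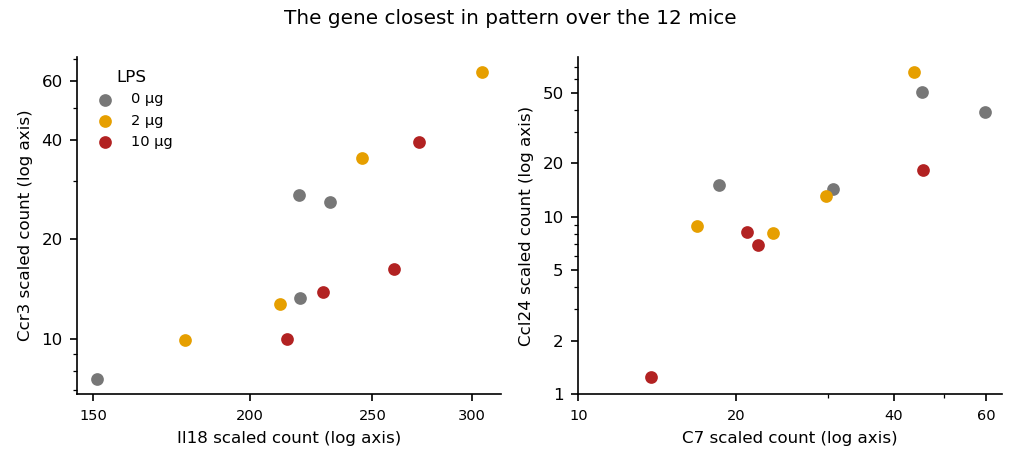
Scaled counts of Ccr3 against Il18 and of Ccl24 against C7 in the 12 mice (log axes), coloured by LPS dose. Each point is a mouse, and mice of all 3 doses lie along both relations.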

How the data were processed

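Total RNA from 12 oviduct samples was counted on the nCounter GX Mouse Inflammation kit, per the labels. The authors deposited raw counts, 1 column per mouse with no normalization, handled here as estimated counts since a decimal image measure stands in the same columns; all probe values are whole. Earlier steps: not given in the sources used here. Groups and mouse numbers came from the sample titles. All 179 inflammation genes matched RefSeq accessions, and 4 of the 6 genes had a promoter window.

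The geometric mean of 6 reference genes gave each lane its scale. Tested were the 165 genes with raw counts over a limit, the mean plus 2 SD of 8 negative probes in that lane, in at least 4 of 12 lanes. All lanes entered 1 edgeR 4.0.16 quasi-likelihood fit (R 4.3.3), with Benjamini-Hochberg adjustment and a threshold of 0.05. SE and 95% intervals were derived from the p-value, since edgeR bounds it by counting error. Intervals cover no error of the scale. Ratios were tested by exact two-sided permutation over mice. Correlations used log2 of the raw count plus 1 divided by the scale. The fit was tested on simulated data, in 20 runs for high dose against control. Where control means were under 50, the share of simulated differences found was 30.6% at 2-fold size and 68.8% at 4-fold size. Over all 165 genes these shares were 62.75% and 86.5%. Of the 6, only Ccl11 had a control mean above 50. Lanes of a group all differed beyond sampling noise, with a chi-square per degree of freedom of at least 15.25 in 18 pairs. P-values set a difference against the spread between mice. For Ccl22, which had few counts, the edgeR p-values were bounded by counting error instead. Deviations of same-numbered mice from their group means correlated at 0.11 to 0.38 between high dose and control. The correlations were -0.13 to 0.27 between low dose and control, and -0.13 to 0.58 between the doses. Mice of different numbers were not compared in this way, so these values cannot show whether same-numbered mice were paired. The reported fit used no pairing.

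The genes named are the 6, the up to 2 highest and 2 lowest of each list past the threshold at the high dose, Ccl5, Ccl7 and the closest genes in pattern. Ccl2, Ccl8, Ccl4, Ccr1, Ccr2, Cd4, H2-Ea, H2-Eb1, Ccl21b and Cxcl3 were added after their values were seen. The 6 genes and the lists were chosen with earlier results of these data known. Alternatives were other scalings, DESeq2 1.42.0, limma-voom (limma 3.58.1), other filters, background subtraction, 2-group fits, a replicate block, leaving out each mouse, and leaving out lanes under 75% of fields.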

Additional observations from a re-analysis of the deposited data

Results flagged for a closer look

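The scaled count of Ccl24 in low-dose mouse 3 was 65.3, far from the other low-dose mice at 8.15 to 13.1. The gap was 0.913 of the group's range, above Dixon's critical value for 4 samples. It was 1 such value in 33 groups of 4 mice examined, where chance gives about 1.65, or 1 in 20.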

How the results depend on the processing

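Of 462 values of single genes under the alternatives, 439 kept their direction and side of the threshold, 7 passed it where the reported fit did not, and 16 changed sign. Of the 7, 1 was Ccl22 at the low dose by exact permutation, which passed only without adjustment. The 462 include fits without a mouse of the group not compared. These move little but the shared spread, so the direction could hardly change in them. At the high dose against control the number of the 6 genes past the threshold was 2 with total counts (Ccl22 at -0.79, adjusted p = 0.0306; Ccl24 at -2.28, adjusted p = 0.0383) and 1 with DESeq2 (Ccl24). Leaving out each mouse gave 0 to 1 at the high dose, 0 to 0 at the low dose and 0 to 0 between doses. By exact permutation without adjustment Ccl22 passed at the low dose (-0.71, p = 0.0286), making 1. The scale itself shifted the median log2 fold change of all genes at the high dose, to 0.00 with TMM, -0.02 with DESeq2 size factors, -0.34 with total counts and 0.20 with positive controls, against 0.24 as reported. With it Ccl11 turned to -0.0143, -0.0528 and -0.36 with TMM, size factors and total counts, and to -0.0731 in DESeq2. Ccr3 turned to -0.0708, -0.11, -0.40 and -0.14, and Ccr4 to -0.0274 with total counts. Without lanes under 75% of fields Ccl24 was 0.71 at the low dose. Leaving out 1 mouse gave -0.43 to 0.38 for Ccr3 and -0.0161 to 0.83 for Ccr4 at the high dose, -1.52 to 0.0924 for Ccl24 at the low dose, and -1.17 to 0.0662 for Ccr3 between doses. The ratio of Ccl17 to Ccl22 between doses was -0.22 to 0.41, and that of Ccl11 to Ccl24 at the low dose -0.15 to 1.03. Single values within these ranges that changed sign were -0.12 for Ccr3, 0.01 for Ccl24 and -0.03 for the Ccl17 to Ccl22 ratio. The causes were not tested.

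Over all genes, 37 calls at the high dose became 59 with DESeq2 size factors, 92 with total counts (30 higher, 62 lower) and 67 with DESeq2 (35 higher, 32 lower), and TMM gave 34 higher and 20 lower. The 4 calls at the low dose became 9 with DESeq2, 2 with limma-voom, 1 in a fit of 2 groups, 0 without lanes under 75% of fields and 1 to 14 without 1 mouse. The 11 between doses became 45 with total counts, 20 with DESeq2, 7 with positive controls, background subtraction or without those lanes, and 6 to 14 without 1 mouse. With the mouse number as a replicate block 1 of the 6 passed between the doses (Ccl11 at 0.64, adjusted p = 0.0207), and no other call on the 6 changed. Counts under about 15 limit Ccl22 and Ccr4 in every mouse, and Ccl24, Ccr3 and Ccl17 in some mice.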
